A study of Mus musculus with 6 samples.

Results

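The BCL2 family decides whether a stressed cell keeps its mitochondria intact. RNA levels of 10 family genes were compared between melanoma tumors from mice given vehicle and from mice given rigosertib (RGS). The members were chosen by name from a table of 40166 mouse genes. They comprised 3 survival genes (Bcl2, Bcl2l1 and Mcl1), 2 effector genes (Bax and Bak1) and 5 BH3-only genes (Bbc3, Pmaip1, Bcl2l11, Bid and Bad). All 10 were found once each, and all 10 passed the filter on low counts.

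YUMM3.3, a mouse melanoma cell line with mutant BRAF, was injected under the skin of C57BL/6 mice, so that every tumor came from 1 cell line in a host with an intact immune system. Bulk RNA was sequenced from 3 tumors of mice given water (vehicle, numbered 7, 8 and 9) and 3 tumors of mice given RGS at 300 mg/kg (numbered 10, 11 and 12), by oral gavage 5 days a week, all collected after 17 days. RGS is a small molecule described as a RAS mimetic. Nothing in the labels tells which mouse each tumor came from or the age of the mice, and p-values therefore measure the spread between these tumors.

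Survival proteins of the family (BCL2, BCL-XL, which Bcl2l1 encodes, and MCL1) hold the other members in check. BAX and BAK, once freed or activated, form pores in the mitochondrial outer membrane, through which cytochrome c leaves to start the caspases. BH3-only proteins carry the stress signal: some bind and neutralize survival proteins, and some also activate BAX and BAK directly. Much of this control acts on the proteins, by cleavage, phosphorylation and degradation, which RNA counts do not show.

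The counts summed to between 22793087 and 32555494 in the vehicle tumors and to between 13837932 and 21617368 in the RGS tumors. The shallowest vehicle library held more counts than the deepest RGS library, and an effect of depth cannot be told apart from one of treatment in these groups. A count of 3, taken as the detection floor, equaled 0.0856 to 0.226 CPM (counts scaled to the library total times its TMM factor), which covers counting error only. Mitochondrial transcripts took 2.13% to 3.20% of counts with vehicle and 5.60% to 8.22% with RGS, and ribosomal protein transcripts 5.16% to 9.41% and 2.85% to 3.35%. Few defining markers of the labelled tissue or of host cells were detected, so the values do not show which cells the libraries hold. Whether genes were removed from the table, or whether the libraries come from whole tumor tissue, was not tested, and the word tumor is used here as the labels use it. The melanocyte genes Mlana, Dct and Tyr were at 0 in all 6 tumors, and the 7 melanocyte markers summed to 4.95 to 7.68 CPM with vehicle and 4.53 to 10.5 CPM with RGS. Ptprc, which encodes CD45, the T cell genes Cd3d, Cd3e, Cd3g and Cd8a, the macrophage gene Adgre1 and the endothelial gene Emcn were also at 0 in all 6. The T cell gene Trac had 0 counts in each vehicle tumor and 30, 16 and 10 in the RGS tumors (called higher, adjusted p = 0.00592), and the macrophage gene Cd68 measured 58.8 to 64.7 CPM with vehicle and 65.4 to 87.7 CPM with RGS (0.24, adjusted p = 0.293). The 5 leukocyte markers summed to 187.1 to 248.5 CPM with vehicle and 919.8 to 1028 CPM with RGS, nearly all of it Laptm5 and Cd53. The 6 fibroblast markers summed to 375 to 571.9 and 276.6 to 305 CPM, the 6 endothelial markers to 0.946 to 1.199 and 3.47 to 11.2 CPM, and the 6 keratinocyte markers to 0.400 to 1.72 and 6.77 to 22.8 CPM. Within the fibroblast list Col1a2, Pdgfra and Pdgfrb were called lower and Dcn higher (1.14 ± 0.495 CPM against 10.7 ± 4.61 CPM), and most of the endothelial and keratinocyte sums with RGS came from Cdh5 and Ivl. The part of these differences in the results that follow was not tested. In bulk RNA, fewer cells of a type and less RNA per cell cannot be told apart.

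RGS tumors had less Mcl1 and less Bbc3 RNA than vehicle tumors, and the other 8 members did not pass the test. A gene was called when its adjusted p was under 0.05 in edgeR's quasi-likelihood test, adjusted over all 15355 genes tested. Of the 10 members, 2 were lower and 0 were higher, while 16.5% of all tested genes were called lower and 16.3% were called higher (32.8% in either direction). None of the 10 was higher at an unadjusted p under 0.05 either (0 in edgeR), or by DESeq2 (0). Among the 10 members, 1 survival gene of 3, 0 effector genes of 2 and 1 BH3-only gene of 5 were lower. The median log2 fold change of the 10 members was 0.01, beside -0.05 over all tested genes. By class it was 0.00 for the survival genes, 0.06 for the effectors and -0.12 for the BH3-only genes. Values did not overlap between the groups for Mcl1 and Bbc3 and did for the other 8. Over all tested genes, 24% had non-overlapping values that were lower with RGS and 21.7% had ones that were higher (45.8% in either direction).

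**Figure D1:**
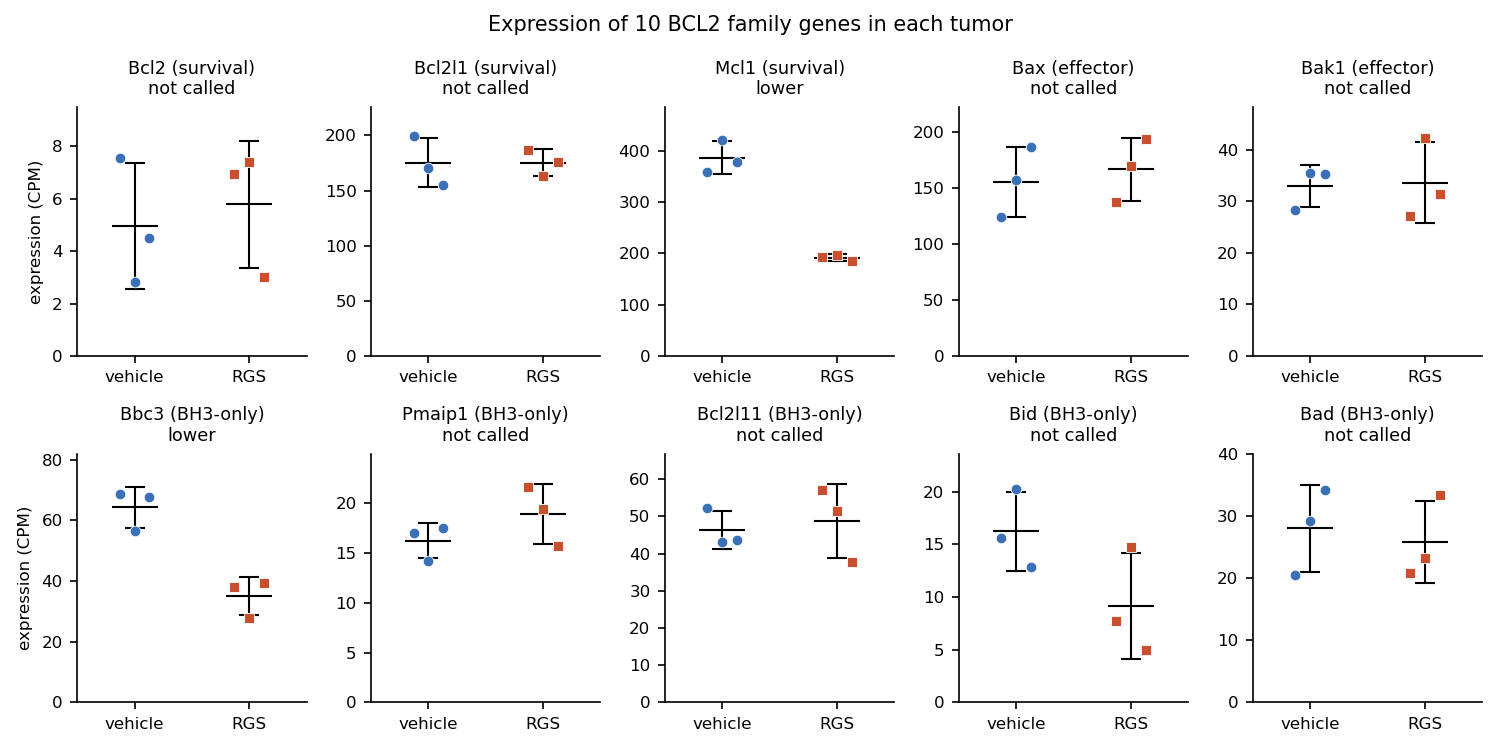
Expression of the 10 members in CPM (vertical axes, each from 0) in 3 vehicle tumors (circles) and 3 RGS tumors (squares), with the mean (horizontal line) and SD (bars). Mcl1 ran from 360 to 422 CPM with vehicle and from 184 to 197 CPM with RGS, and Bbc3 from 56.6 to 68.8 and from 27.8 to 39.5 CPM. In the other 8 panels the groups overlap.

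Mcl1 encodes a short-lived survival protein that binds BAK and the BH3-only proteins BIM and NOXA. In vehicle tumors 7, 8 and 9 its level was 360, 422 and 379 CPM. In RGS tumors 10, 11 and 12 it was 194, 197 and 184 CPM. All 3 RGS tumors thus lay well below the lowest vehicle tumor. The mean of the 3 vehicle tumors was 386.8 ± 31.9 CPM and that of the 3 RGS tumors 191.6 ± 6.44 CPM (± SD), a level 2.02-fold lower. The log2 fold change was -1.01 (SE 0.15, 95% interval -1.32 to -0.70, adjusted p = 3.54e-05). With counts thinned to the smallest library it was -1.02 (adjusted p = 2.98e-05). Mcl1 lies on chromosome 3 from 95658788 to 95663176, plus strand, in the GRCm38 coordinates of the table.

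Bcl2l1 encodes BCL-XL, a survival protein common in solid tumors. Its level was 199, 171 and 155 CPM in the vehicle tumors and 187, 163 and 176 CPM in the RGS tumors, with every RGS value inside the vehicle range. The log2 fold change was 0.00 (SE 0.15, adjusted p = 0.998), and its 95% interval ran from -0.32 to 0.32. Bcl2, the founding member of the family, was the least expressed of the 10. It measured 7.54, 2.82 and 4.51 CPM with vehicle and 6.96, 7.38 and 3.00 CPM with RGS. Tumors of both groups were spread over more than the difference of their means, and the log2 fold change of 0.22 had an interval of -0.78 to 1.22 (adjusted p = 0.766). For Bcl2 a 2-fold change in the upward direction was therefore within the interval.

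Bax and Bak1 encode the pore-forming effectors. Bax measured 124, 157 and 186 CPM with vehicle and 137, 169 and 193 CPM with RGS. Bak1 measured 28.3, 35.4 and 35.3 CPM with vehicle and 27.1, 42.3 and 31.4 CPM with RGS. Both genes varied as much within a group as between the groups. The log2 fold change was 0.10 for Bax (interval -0.27 to 0.47, adjusted p = 0.713) and 0.02 for Bak1 (interval -0.42 to 0.47, adjusted p = 0.946). The GENCODE annotation holds exons of Ggnbp1 on the opposite strand over 437 bases of Bak1, with 9 to 149 counts per tumor in the table. It also holds exons of Gm45808 on the same strand over 192 bases of Bax.

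Among the BH3-only genes, Bbc3 was lower with RGS. Bbc3 encodes PUMA, which binds all the survival proteins and is a well-known target of p53. The vehicle tumors had 68.8, 56.6 and 67.7 CPM and the RGS tumors 38.1, 27.8 and 39.5 CPM. The highest RGS value lay below the lowest vehicle value. The vehicle mean was 64.4 ± 6.78 CPM and the RGS mean 35.1 ± 6.39 CPM (SD over 3 tumors), a level 1.83-fold lower. The log2 fold change was -0.87 (SE 0.19, interval -1.27 to -0.48, adjusted p = 0.00156), and -0.89 with counts thinned to the smallest library (adjusted p = 0.00133). Bbc3 lies on chromosome 7 from 16308393 to 16318205, plus strand. For neither Mcl1 nor Bbc3 did the annotation hold exons of another gene over its own.

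Bid encodes the BH3-only protein that caspase 8 cuts, which links death receptors to mitochondria. It measured 15.6, 20.3 and 12.8 CPM with vehicle and 7.72, 14.8 and 5.02 CPM with RGS. RGS tumor 11 fell within the vehicle range and the other 2 RGS tumors lay below it. The log2 fold change was -0.83 (SE 0.35, interval -1.56 to -0.10), with an unadjusted p of 0.0276 in edgeR and an adjusted p of 0.0743. Bid was called lower without RGS tumor 11 (-1.36, adjusted p = 0.00462) or without vehicle tumor 9 (-0.97, adjusted p = 0.0383). It was not called without vehicle tumor 8 (-0.62, adjusted p = 0.291) or without RGS tumor 12 (-0.57, adjusted p = 0.213). Its exons share 628 bases with those of Bcl2l13 on the opposite strand, which had 372 to 1315 counts per tumor, and reads of the 2 genes cannot be told apart where strand was not used in counting.

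The other 3 BH3-only genes did not pass the test. Bcl2l11 encodes BIM, which binds every survival protein and activates BAX and BAK. It measured 52.2, 43.2 and 43.7 CPM with vehicle and 57.0, 51.5 and 37.6 CPM with RGS (log2 fold change 0.07, interval -0.33 to 0.48, adjusted p = 0.812). RGS tumor 12 was the lowest of the 6 and RGS tumor 10 the highest. Pmaip1 encodes NOXA, which binds MCL1 in preference to BCL-XL. Its values were 17.0, 14.2 and 17.5 CPM with vehicle and 21.6, 19.4 and 15.7 CPM with RGS (0.22, interval -0.29 to 0.73, adjusted p = 0.526). RGS tumors 10 and 11 lay above the vehicle range and tumor 12 within it. Bad encodes a protein that survival kinases keep phosphorylated and away from BCL-XL. It measured 20.4, 29.2 and 34.2 CPM with vehicle and 20.8, 23.3 and 33.3 CPM with RGS (-0.12, interval -0.62 to 0.39, adjusted p = 0.754). All RGS values of Bad lay inside the vehicle range, and its exons share 524 bases with Gpr137 on the opposite strand.

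**Figure D2:**
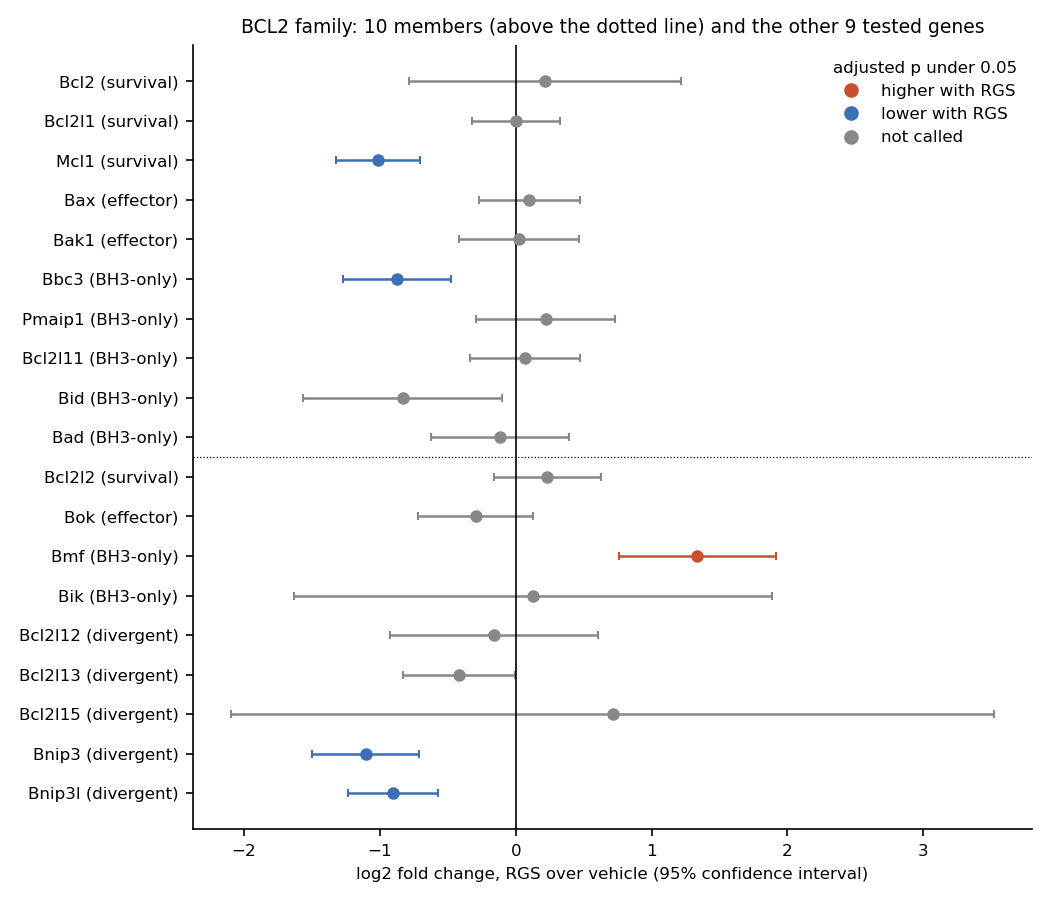
Log2 fold change, RGS over vehicle (horizontal axis), with its 95% confidence interval (bars), for the 10 members above the dotted line and the other 9 tested family genes below it. Among the members, Mcl1 (-1.01) and Bbc3 (-0.87) were called lower, and below the line Bmf (1.34) was called higher and Bnip3 (-1.11) and Bnip3l (-0.90) lower.

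The sequences just before the transcription starts of these genes are shown for the 2 members that were lower, and for Bcl2l11 and Bax as members that were not called, since transcription factors known to act on the family (FOXO proteins, p53 and the general factor SP1) bind such letters. Each run is the 250 bases before a RefSeq start site in GRCm38.p6, read 5′ to 3′ on the strand of the gene. The runs held no annotated exon of their own gene, and exons of other genes were not looked for. The genes, windows and motifs were chosen after the values were seen. Capitals mark 1 motif per run: a GC box (GGGCGG, here on the other strand) in Mcl1, a FOXO motif (GTAAACA, in Bbc3 on the other strand) in Bbc3 and Bcl2l11, and a p53 half-site in Bax.
Mcl1, chr3:95658471-95658720, plus strand: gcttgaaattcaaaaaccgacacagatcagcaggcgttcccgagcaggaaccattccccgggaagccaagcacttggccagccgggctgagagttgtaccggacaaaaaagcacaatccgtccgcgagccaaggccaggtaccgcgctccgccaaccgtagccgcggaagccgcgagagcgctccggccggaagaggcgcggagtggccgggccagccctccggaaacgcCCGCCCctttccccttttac
Bbc3, chr7:16310011-16310260, plus strand: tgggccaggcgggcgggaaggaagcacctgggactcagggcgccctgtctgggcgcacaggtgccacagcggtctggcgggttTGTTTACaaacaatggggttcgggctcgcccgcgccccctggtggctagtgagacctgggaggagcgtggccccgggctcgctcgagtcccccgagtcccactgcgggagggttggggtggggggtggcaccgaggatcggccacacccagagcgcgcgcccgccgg
Bcl2l11, chr2:128125788-128126037, plus strand: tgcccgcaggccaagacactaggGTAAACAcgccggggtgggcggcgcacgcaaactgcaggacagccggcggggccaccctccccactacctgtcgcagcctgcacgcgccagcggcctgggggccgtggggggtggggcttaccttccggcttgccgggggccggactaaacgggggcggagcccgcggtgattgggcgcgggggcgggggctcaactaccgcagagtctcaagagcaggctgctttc
Bax, chr7:45466899-45467148, minus strand: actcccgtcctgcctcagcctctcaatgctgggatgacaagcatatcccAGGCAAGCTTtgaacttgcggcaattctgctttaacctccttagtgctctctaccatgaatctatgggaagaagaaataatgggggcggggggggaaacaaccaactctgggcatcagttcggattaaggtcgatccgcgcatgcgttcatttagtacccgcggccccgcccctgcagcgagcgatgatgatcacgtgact
The Bbc3 window belongs to 1 of 3 start sites of that gene and lies within its annotated span, and the Bcl2l11 window belongs to 1 of 2. The other start sites of both genes held no FOXO motif. On both strands, the FOXO motif was in 3.17% of the 32851 upstream windows of the mouse table, the p53 half-site in 7.13% and the GC box in 32.7%. The other 4 motifs searched were the E-box CACGTG (6.02%), the CRE half-site TGACG (17.8%), the C/EBP-ATF composite TGATGCAA (0.791%) and the CCAAT box CCAAT (33.8%), and none of them overlapped a motif in capitals. The Mcl1 window held the GC box and none of the other 6 motifs searched. A GC box was also in the Bbc3, Bcl2l11 and Bax windows shown, left there in lower case. Among the uncalled members not shown, Bcl2 and Bid held a GC box, and Bcl2l1 and Bak1 held none. Bad held it before 1 start site and not before the other, and no window of Pmaip1 was searched. The p53 half-site of Bax, which was not called, was in no window of Mcl1, Bbc3 or Bcl2l11. Bbc3, which was lower with RGS, and Bcl2l11, which was not called, shared the FOXO motif. The searched windows of the other members, Mcl1 among them, held none. Whether these letters bear on the RNA levels was not tested. A match describes letters and does not show that a factor bound.

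Compared per length of gene, the order of the members differed between the groups at its top. Levels between genes are given as RPKM, the CPM value per kilobase of gene. In vehicle tumors Mcl1 (113 ± 9.32 RPKM, SD, n = 3) and Bax (98.7 ± 19.8) ranked first and second and their values overlapped. They were followed by Bcl2l1 (38.2 ± 4.85), Bbc3 (30.3 ± 3.19), Bad (13.9 ± 3.48), Bak1 (13.7 ± 1.68), Pmaip1 (6.13 ± 0.674), Bcl2l11 (5.77 ± 0.635), Bid (4.57 ± 1.06) and Bcl2 (0.541 ± 0.261). Of these neighbors, Bad and Bak1, Pmaip1 and Bcl2l11, and Bcl2l11 and Bid overlapped as well, and the others did not. In RGS tumors Bax (106 ± 17.9 RPKM) ranked first, and its lowest tumor, at 86.9 RPKM, lay above the highest Mcl1 tumor, at 57.5 RPKM. Mcl1 (56.1 ± 1.89) remained above Bcl2l1 (38.2 ± 2.63) in all 3 RGS tumors. Bbc3 (16.5 ± 3.01), Bak1 (13.95 ± 3.25) and Bad (12.9 ± 3.30) followed, with overlap between Bbc3 and Bak1 and between Bak1 and Bad. The lowest places were again taken by Pmaip1, Bcl2l11, Bid and Bcl2.

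Summed over the 3 survival genes, the level was 149.5, 161 and 145.3 RPKM in the vehicle tumors and 98.3, 93.9 and 92.6 RPKM in the RGS tumors, so that the groups were apart. The 2 effectors summed to 90.4, 114.1 and 132.8 RPKM with vehicle and to 98.2, 125.1 and 135.7 RPKM with RGS, and the groups overlapped. The 5 BH3-only genes summed to 59.9, 57.6 and 64.6 RPKM with vehicle and to 45.7, 42.6 and 47.2 RPKM with RGS. For this class, as for the survival genes, the groups were apart, with lower sums in the RGS tumors. These sums are weighted to their most abundant genes, Mcl1 among the survival genes and Bbc3 among the BH3-only genes, and were computed after the values were seen. Mcl1 made up 74.5% ± 3.54 of the survival sum with vehicle and 59.1% ± 1.90 with RGS (SD, n = 3). Bcl2l1 made up 25.2% ± 3.37 and 40.3% ± 2.05 of the same sum, although its own level differed by less than the spread between tumors.

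Ratios between 2 members within a tumor do not depend on the scaling between libraries. They are given per length and as a description, without a test. The ratio of Mcl1 to Bcl2l1 was 2.42, 3.31 and 3.27 in the vehicle tumors and 1.39, 1.62 and 1.41 in the RGS tumors, with no overlap. The ratio of Bax to Mcl1 was 0.747, 0.805 and 1.07 with vehicle and 1.53, 1.87 and 2.28 with RGS. Per kilobase of gene, Bax RNA thus exceeded Mcl1 RNA in 1 of 3 vehicle tumors and in 3 of 3 RGS tumors. Without division by length, Bax was above Mcl1 only in RGS tumor 12 (193 against 184 CPM). Which of the 2 RNAs ranks higher therefore depends on the gene lengths used. The ratio of Bcl2l11 to Mcl1 was 0.0618, 0.0436 and 0.0491 with vehicle and 0.125, 0.111 and 0.0869 with RGS, also without overlap. The ratio of Bbc3 to Bcl2l1 was 0.746, 0.714 and 0.940 with vehicle and 0.439, 0.368 and 0.486 with RGS. Each of these 4 ratios contains Mcl1 or Bbc3, and they are not independent of the 2 calls. The ratios without either gene overlapped between the groups. Bax to Bcl2l1 ranged from 1.81 to 3.49 with vehicle and from 2.13 to 3.20 with RGS, and Bcl2l11 to Bcl2l1 from 0.144 to 0.161 and from 0.122 to 0.180. Bax to Bcl2, a ratio with a scarce denominator, ranged from 95.5 to 323.2 and from 114.4 to 374.7. Bcl2 to Bcl2l1 and Bak1 to Bax overlapped too.

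**Figure D3:**
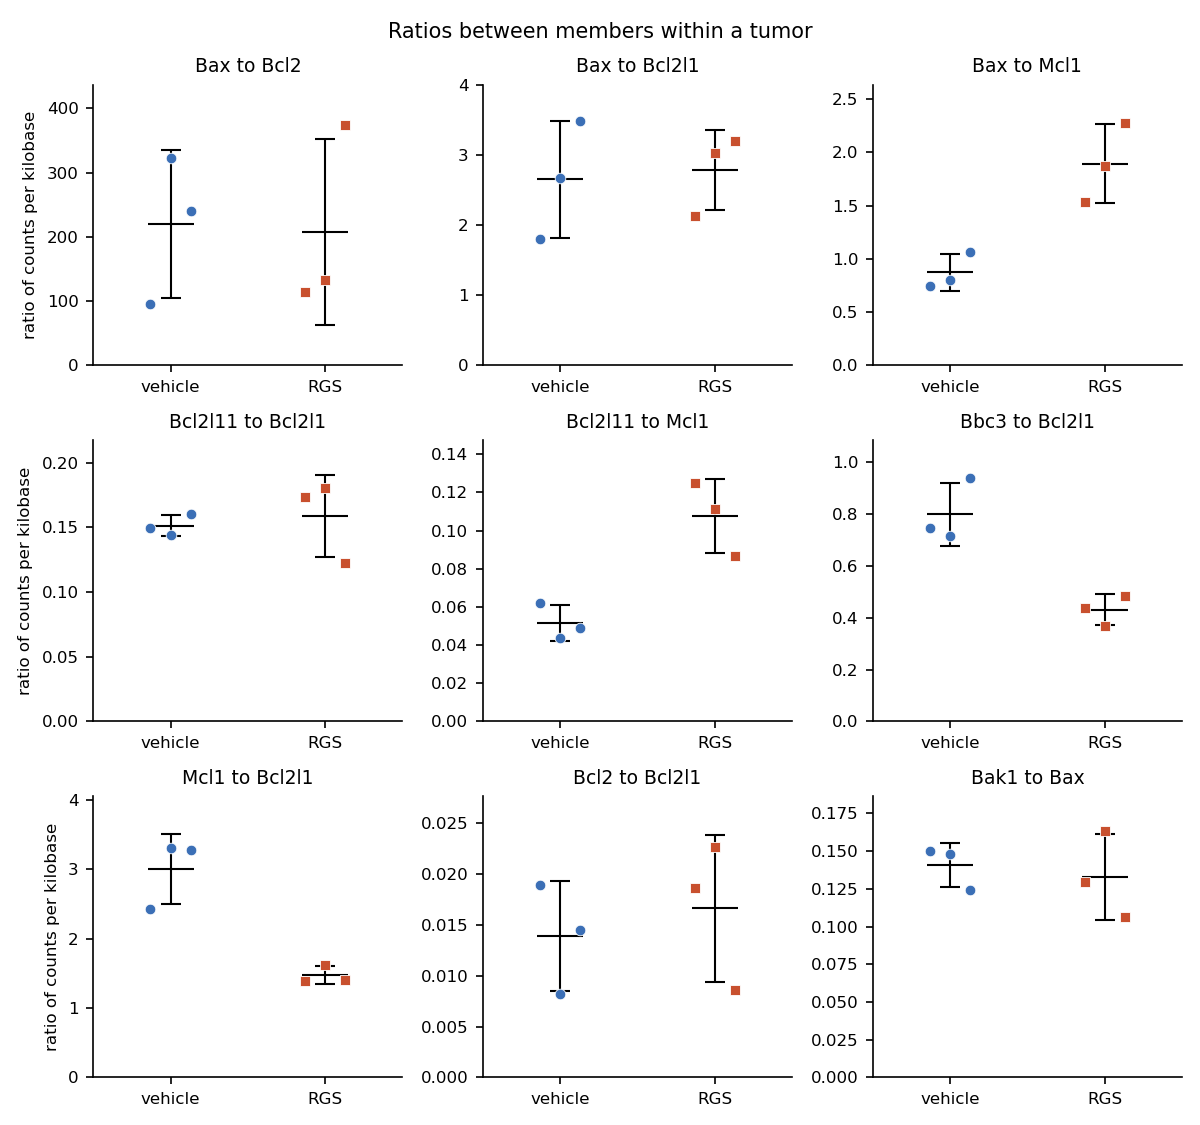
Ratio of 2 members within each tumor, in counts per kilobase (vertical axes, each from 0), for 3 vehicle tumors (circles) and 3 RGS tumors (squares), with the mean (horizontal line) and SD (bars). The ratios Bax to Mcl1 and Bcl2l11 to Mcl1 are higher in every RGS tumor, Mcl1 to Bcl2l1 and Bbc3 to Bcl2l1 lower, and the other 5 overlap.

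Beyond the 10 members, 15 further family genes were listed, of which 9 passed the filter, and of these 1 was higher and 2 were lower with RGS (median log2 fold change -0.16), beside 16.3% and 16.5% of all tested genes. Bmf, a BH3-only gene whose protein is held at the cytoskeleton, was higher. It measured 11.5, 9.16 and 7.31 CPM with vehicle and 24.2, 29.2 and 17.6 CPM with RGS, so that the lowest RGS tumor lay above the highest vehicle tumor. The level was 2.53-fold higher (log2 fold change 1.34, SE 0.27, adjusted p = 0.000983). Bnip3 and Bnip3l, divergent relatives that tag mitochondria for autophagy and are induced by low oxygen, were lower, by log2 fold changes of -1.11 (SE 0.19, adjusted p = 0.000183) and -0.90 (SE 0.16, adjusted p = 0.000214). The other 6 tested genes were not called. They were Bcl2l2, which encodes the survival protein BCL-W (0.23, adjusted p = 0.374), the effector-like Bok (-0.30, adjusted p = 0.285), the BH3-only gene Bik (0.13, adjusted p = 0.924), and Bcl2l12 (-0.16, adjusted p = 0.779), Bcl2l13 (-0.42, adjusted p = 0.114) and Bcl2l15 (0.71, adjusted p = 0.726). Of the 6 untested genes, Bcl2a1a, Bcl2a1b, Bcl2a1d and Bcl2l10 had 0 counts in all 6 tumors. Hrk had 3 counts in RGS tumor 10 and Bcl2l14 had 9 counts in RGS tumor 12, and both had 0 in the rest. Among BH3-only genes of the whole family, 1 was therefore higher (Bmf) and 1 lower (Bbc3) of the 7 tested.

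Genes that act before and after the family were listed in 9 groups of 82 genes, of which 80 were tested, 16 were higher and 23 were lower with RGS (median 0.05). The counts in these lists stand beside 16.3% called higher and 16.5% called lower among all tested genes. Without vehicle tumor 8 these counts were 10 and 15. Downstream, the 6 genes of the apoptosome and caspases had a median of 0.23. Cytochrome c (Cycs, 0.41, adjusted p = 0.134), Apaf1 (0.30, adjusted p = 0.294) and Casp9 (0.23, adjusted p = 0.460) were not called. Of 6 caspase inhibitors and their antagonists, 3 were lower. Birc5, which encodes survivin, a protein of dividing cells, fell by 1.24 on the log2 scale (adjusted p = 0.00727). Birc2, which encodes the ubiquitin ligase cIAP1, fell by 1.11 (adjusted p = 0.00188), and Htra2, a mitochondrial protease that opposes such inhibitors, fell by 0.74 (adjusted p = 0.00239). The exons of Htra2, with 777 to 2690 counts per tumor, share 753 bases with Aup1 (1701 to 3683 counts) and 535 with Loxl3 (903 to 3092 counts) on the opposite strand. Of 6 genes for outer membrane channels and mitochondrial fission, 3 were lower, among them the fission receptor Mff (-1.12, adjusted p = 0.000183) and the channel Vdac3 (-0.92, adjusted p = 0.000191). The third, Vdac1 (-0.40), had an adjusted p just under the threshold and lost its call without any 1 tumor (-0.31 to -0.49, adjusted p up to 0.18).

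Upstream of Bid, 8 genes of death receptors and BID cleavage included 1 that was higher and 2 that were lower. Fas, a death receptor, measured 13.6 ± 7.07 CPM with vehicle and 1.57 ± 0.571 CPM with RGS (-3.11, adjusted p = 4.51e-05). Casp8, whose protease cuts BID, rose by 0.71 (adjusted p = 0.00381). Tnfrsf10b, which encodes the TRAIL receptor, was lower (-0.57, adjusted p = 0.0241), and its call was lost without vehicle tumor 7 (adjusted p = 0.0881), vehicle tumor 8 (adjusted p = 0.0553), RGS tumor 10 (adjusted p = 0.0513) or RGS tumor 12 (adjusted p = 0.072). Of 6 genes that set the stability of MCL1 protein, 2 were higher and 0 lower (0 lower also at an unadjusted p under 0.05 in edgeR, and 0 by DESeq2). Usp13, which encodes a deubiquitinase, was 8.20 ± 0.918 CPM with vehicle and 17.0 ± 2.21 CPM with RGS (1.05, adjusted p = 0.00639). Huwe1, which encodes a ubiquitin ligase of MCL1, was higher (0.46, adjusted p = 0.047) but kept no call without vehicle tumor 8 (0.38), vehicle tumor 9 (0.37), or any 1 RGS tumor (0.41, 0.47 and 0.48, adjusted p 0.0849 to 0.198 over these 5).

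Of 15 genes for kinases, phosphatases and the 14-3-3 protein that act on BAD and BIM, 8 were higher and 3 were lower (median 0.43). Those that rose included the kinase genes Mapk9, which encodes JNK2 (0.74, adjusted p = 0.00166), and Rps6ka1, which encodes RSK1 (1.06, adjusted p = 0.00829), and the 14-3-3 gene Ywhaz (0.60, adjusted p = 0.00371). Rps6ka1 lost its call without RGS tumor 10 (0.87, adjusted p = 0.0513). Rps6ka3, which encodes RSK2, was also higher (0.63, adjusted p = 0.0103), and lost its call without vehicle tumor 8 (adjusted p = 0.0633) or RGS tumor 11 (adjusted p = 0.0622). The kinase genes Pim1 (-0.66, adjusted p = 0.0027) and Pim3 (-0.71, adjusted p = 0.0012) fell. Of 6 genes for partners of BCL2 proteins at the endoplasmic reticulum and in autophagy, 3 were higher: Itpr2, a calcium release channel (0.85, adjusted p = 0.00791), Bcap31 (0.70, adjusted p = 0.00514) and Tmbim6, also called BAX inhibitor 1 (0.55, adjusted p = 0.00821). The call of Bcap31 was lost without RGS tumor 12 (0.55, adjusted p = 0.0528).

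Of 13 transcription factors known to act on family genes, 12 were tested, 2 were higher and 3 were lower. Ddit3, which encodes CHOP, measured 176.9 ± 24.8 CPM with vehicle and 70.2 ± 6.72 CPM with RGS (-1.33, adjusted p = 5.86e-06). Myc fell by 1.15 (adjusted p = 1.27e-05), and Rela, an NF-kB subunit, rose by 0.70 (adjusted p = 0.00579). Trp53 RNA was higher (0.51, adjusted p = 0.0156), a call lost without vehicle tumor 8 (adjusted p = 0.0705), vehicle tumor 9 (adjusted p = 0.0662) or RGS tumor 12 (adjusted p = 0.0692). Atf4 was lower (-0.47, adjusted p = 0.022), a call lost without vehicle tumor 8 (adjusted p = 0.109), vehicle tumor 9 (adjusted p = 0.058), RGS tumor 10 (adjusted p = 0.0917) or RGS tumor 11 (adjusted p = 0.0947). The genes of the FOXO factors, Foxo1 (0.05, adjusted p = 0.899), Foxo3 (0.33, adjusted p = 0.265) and Foxo4 (-0.38, adjusted p = 0.206), were not called.

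Bbc3, Bax and Pmaip1 are among the textbook targets of p53, and 16 further targets outside the family were listed. Of the 15 tested, 8 were lower and 0 were higher, with a median of -0.48. At an unadjusted p under 0.05 in edgeR 1 of them, Btg2 (0.53), was higher, and by DESeq2 0 were. Mdm2, the ubiquitin ligase of p53, measured 489.8 ± 40.9 CPM with vehicle and 225.4 ± 25.7 CPM with RGS (-1.12, adjusted p = 1.88e-05). Ccng1 (-1.23, adjusted p = 7.69e-06), Trp53inp1 (-1.07, adjusted p = 6.14e-05) and Eda2r (-0.90, adjusted p = 0.000809) fell as well. Cdkn1a, which encodes the cell cycle inhibitor p21, was not called (0.12, adjusted p = 0.577). The list was drawn up with results on p53 target genes in these tumors already known, and is no independent evidence of their direction.

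**Figure D4:**
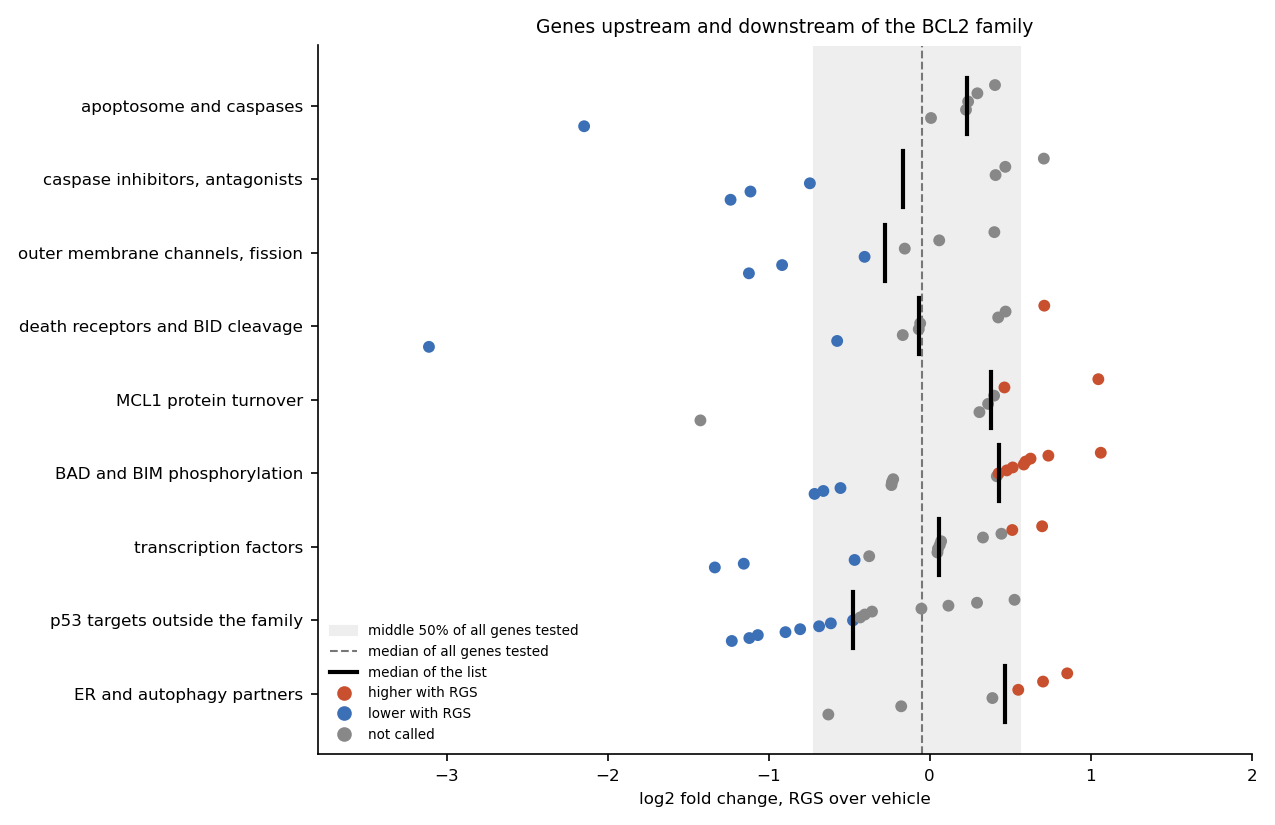
Log2 fold change, RGS over vehicle (horizontal axis), of 80 tested genes in 9 lists upstream and downstream of the family (rows). Each point is 1 gene, red where called higher, blue where called lower and gray where not called; black bars are list medians, the dashed line is the median of all genes tested (-0.05) and the shaded band runs between their quartiles. The p53 targets have the lowest list median (-0.48), with 8 of 15 called lower.

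Across 18 other ways of computing the fold change, Mcl1 stayed between -1.15 and -0.91 and Bbc3 between -1.01 and -0.74, each called lower in all of them. Bid ranged from -1.36 to -0.57 and was called in 5.

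**Figure D5:**
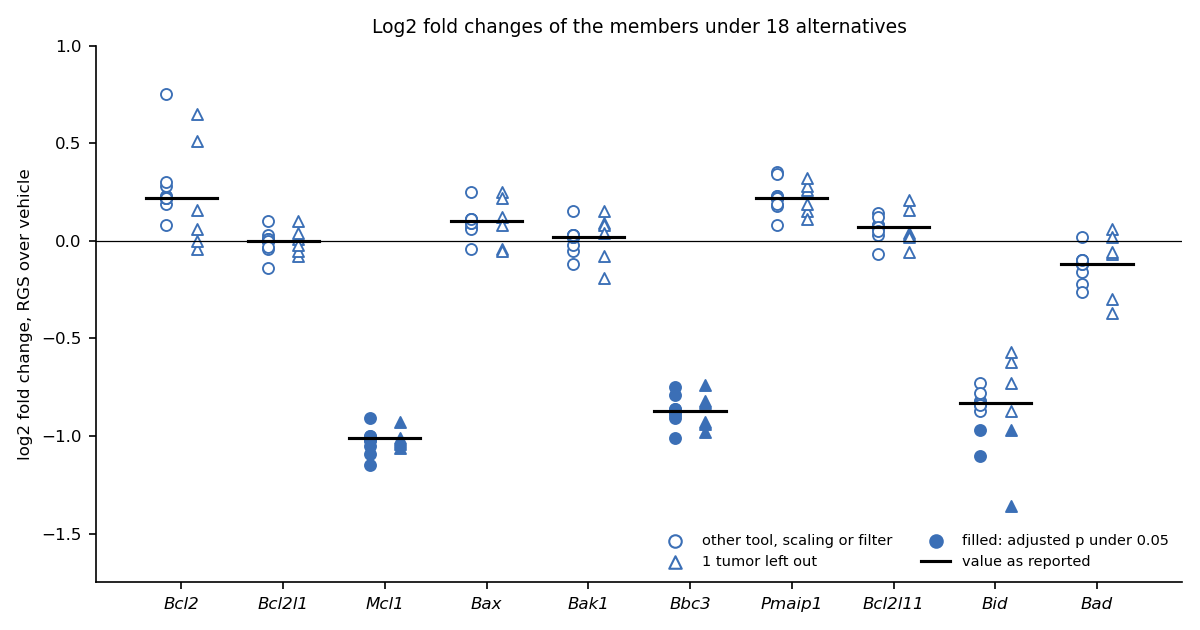
Log2 fold change, RGS over vehicle (vertical axis), of each member under 12 other tools, scalings or filters (circles) and with 1 tumor left out (triangles), with filled symbols where the adjusted p was under 0.05 and a black bar for the value reported. Mcl1 and Bbc3 are filled throughout, Bid is filled in 5 of 18, and the other 7 members are open throughout.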

How the data were processed

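RNA was extracted from YUMM3.3 tumors kept in RNAlater and sequenced as paired-end reads (3 vehicle, 3 RGS). The submitters' processing notes name cutadapt 1.18, FastQC 0.11.7, STAR 2.7.1a, featureCounts 1.6.4 and the mouse build mm10. Raw counts of reads in each gene, not normalized, were deposited with gene lengths and positions. The annotation release, strand setting and handling of reads matching several genes are not given in the sources used here. Of the 40166 genes, 40013 identifiers (version ignored) were in GENCODE M21 and 39178 had the same start and end there. No column of another sample was used.

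Groups came from the sample titles. Genes whose median count reached 5 in either group (15355 genes) were compared with edgeR 4.0.16 in R 4.3.3, with TMM factors, the quasi-likelihood F test and Benjamini-Hochberg adjustment over all of them. Standard errors were taken as the size of the log2 fold change over the root of F. CPM used the TMM-scaled library, and RPKM the gene length of the table. An exact two-sided permutation test of 3 against 3 tumors cannot go below 0.1, and none was used. Alternatives were DESeq2 1.42.0, limma 3.58.1 (voom with quality weights), robust dispersions, other scalings, filters and thresholds, a gene length offset, mitochondrial genes left out, thinned counts, 1 count added to the ratios and each tumor left out. Totals of 13837932 to 32555494 counts set the counting error, and the standard errors also take in the spread between tumors of a group.

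The procedure was tested on simulated counts. Recovery of changed genes was poor under 1 CPM, and the share of false calls was above the nominal level in edgeR and further above it in DESeq2. It missed the first limit set for recovery, and the limits were changed after that output had been seen, to the accuracy of the fold changes, their sign and the share of false calls, with recovery reported apart for low genes. The fit itself was not changed. The members and gene lists were chosen with earlier results of these data known. Named were all members, all tested family genes and, of each other list, up to 4 called genes in each direction with the largest change, no overlap between groups and at least 1 CPM in the higher group; Cycs, Apaf1, Casp9, Btg2, Cdkn1a and the FOXO genes were added after their values were seen. Results of some genes that the rule takes are not reported here. Upstream sequences are from RefSeq (GRCm38.p6).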

Additional observations from a re-analysis of the deposited data

How the results depend on the processing

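Mcl1 and Bbc3 were lower under each of the 20 alternatives, and Mcl1 kept its call in all of them, while Bbc3 (-0.87) lost it where a log2 fold change of 1 or more in size was also asked for. The members called lower then numbered 1, the other family genes called lower 1, the other pathway genes 2 higher and 10 lower, and all genes 1168 higher and 1450 lower. At an adjusted p under 0.01, all genes called were 1607 higher and 1562 lower, and the other pathway genes 10 and 15. With library size only, the median of all genes moved from -0.05 to -0.19 (log2), and 10 other pathway genes were called higher. With 1 tumor left out in turn, other pathway genes called ranged from 10 to 20 higher and from 15 to 20 lower. The members called lower numbered 3, with Bid, under limma voom (Bid -1.10), library size only (-0.97) and no filter (-0.84).

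Direction turned only for genes that were not called. With library size only, Bcl2l1 was -0.14, Bax -0.04, Bak1 -0.12 and Bcl2l11 -0.07. With upper-quartile factors, Bcl2l1 was -0.04 and Bak1 -0.02. Bak1 was -0.05 with limma voom, Bad 0.02 with the gene length offset, and Bcl2l1 0 without mitochondrial genes and -0.03 with thinned counts. With 1 tumor left out, Bcl2 ranged from -0.04 to 0.65, Bcl2l1 from -0.08 to 0.10, Bax from -0.05 to 0.25, Bak1 from -0.19 to 0.15, Bcl2l11 from -0.06 to 0.21, Bad from -0.37 to 0.06, Bcl2l12 from -0.57 to 0.08 and Bik from -0.34 to 0.55. The cause was not tested. No paired analysis was run, because the sample titles number the tumors 7 to 9 and 10 to 12 and give no pairing between the groups. Depth limits genes near the floor of 0.0856 to 0.226 CPM, and strand-blind counting, if used, would limit genes that share exonic bases with another, among them Bid, Bad, Bak1, Bcl2l12, Bcl2l13 and Htra2.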
